A study of Mus musculus with 1 sample.

Results

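The genes described here are 10 transcription factors of the gonadal somatic lineages, Sox9, Sox8, Wt1, Gata1, Gata4, Gata6, Tcf21, Nr2f2, Emx2 and Lhx9. They were chosen by symbol from the 27998 genes listed for a single-cell RNA-seq library, and all 10 were present in that list. The library was made from testis cells of Wild-type C57BL/6 mice at postnatal day 8, and no treatment is given in the labels. Cells of 3 mice were pooled in equal numbers after magnetic selection for THY1, a surface antigen used to enrich spermatogonia, and a small number of unselected testis cells was added back. The library therefore counts as 1 sample, the shares of cell types in it were set by the selection and the addition, and no p-value can be given. Intervals are at the 95% level and cover counting error only.

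Each of these factors has a known place in gonad formation or in a mature gonadal cell. Sertoli cells, which nurse the germ cells inside the tubules, are specified by SOX9 and keep their identity with the help of WT1 and SOX8, while GATA4, GATA6 and GATA1 are zinc finger factors that bind promoters of Sertoli genes. Outside the epithelium, TCF21, a basic helix-loop-helix factor, and NR2F2, an orphan nuclear receptor also called COUP-TFII, are known from mesenchymal and interstitial cells, which include stromal cells and the contractile peritubular myoid cells that wrap the tubule. EMX2 and LHX9 are homeodomain factors of the early gonadal ridge, needed for the ridge to form before the sexes diverge.

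The library held 970 cell barcodes with a median of 9115 UMIs (unique molecular identifiers, each standing for 1 captured mRNA molecule), and 920 cells were kept. Clusters were named from marker genes that include none of the 10 factors, and the 10 factors were also left out of the genes used for clustering. This gave 255 Sertoli-like cells in 3 clusters, 186 stromal-like cells, 94 peritubular myoid-like cells, 324 germ cells, 35 macrophage-like cells and 1 cluster of 26 cells that was left unnamed. The median depth was 8343 UMIs in Sertoli-like cells, 8370.5 in stromal-like cells and 7446 in peritubular myoid-like cells, against 18216.5 in germ cells. The 8 Sertoli markers, among them Amh and Dhh, summed to 6481 CPM, that is, UMIs per 1000000 UMIs of the class, in Sertoli-like cells and to 153 CPM in stromal-like cells. The 7 myoid markers, among them Acta2 and Myh11, summed to 11859 CPM in peritubular myoid-like cells and to 601 CPM in stromal-like cells. Of these markers, Des did not separate the classes, at 54.0 CPM in the former and 53.0 CPM in the latter. The 8 stromal markers, led by Dlk1 and Dcn, summed to 13465 CPM in stromal-like cells and 2104 CPM in peritubular myoid-like cells. In the latter Pdgfra stood at 67.4%, Col1a1 at 52.5%, Igf1 at 38.8% and Col3a1 at 29.0% of the stromal-like CPM. The other stromal markers stood at 15.8%, the value of Lum, or lower. No cluster was named after Leydig cells, but the 6 Leydig markers summed to 448 CPM in stromal-like cells and 8.10 CPM in peritubular myoid-like cells, and none of the 6 was at 0 in the former. The part of such cells in the stromal-like values was not tested.

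By their summed levels in the classes, all factors but Gata4 and Emx2 fell into a Sertoli group or an interstitial group. A gene was called specific to a class when its CPM there was at least 4 times that in each of the other somatic classes, and shared by a pair of classes when both stood at least 4 times above the remaining class, with every interval excluding a ratio of 1 and at least 20 UMIs in the 3 classes together. Of the 10 factors 9 had enough UMIs. Sox9, Sox8, Wt1, Gata1 and Gata6, 5 of the 9, were specific to Sertoli-like cells, a call that 6.56% of the 10575 genes tested received. Tcf21, Nr2f2 and Lhx9, 3 of the 9, were shared by stromal-like and peritubular myoid-like cells, as were 5.82% of all genes tested. None of the 9 was specific to stromal-like cells, against 1.32% of genes, or to peritubular myoid-like cells, against 1.38%. None was shared by Sertoli-like cells and another class, against 1.06%. Gata4 was the 1 factor not called, like 83.9% of genes. Emx2 had too few UMIs to be judged.

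**Figure D1:**
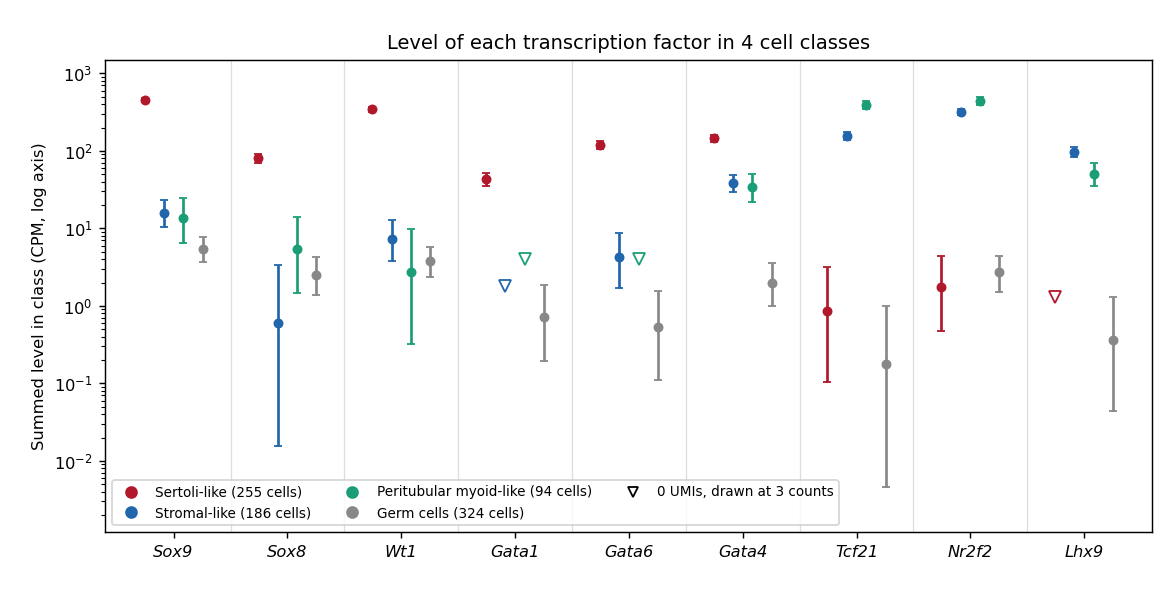
Points give the summed level of 9 factors (CPM, log axis) in Sertoli-like, stromal-like, peritubular myoid-like and germ cells, with exact Poisson 95% intervals, and open triangles mark classes with 0 UMIs at the level that 3 counts would give. Sox9, Sox8, Wt1, Gata1 and Gata6 stand highest in Sertoli-like cells, Tcf21, Nr2f2 and Lhx9 in the other somatic classes, and Gata4 lies between, with 145 CPM in Sertoli-like cells and 38.4 CPM in stromal-like cells; levels are to be compared within a gene.

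Promoter windows are shown for the 3 factors with a shared call and for 2 of those with a Sertoli call. Genes detected together can thus be compared in sequence. A window runs from 250 bases before to 50 bases after a RefSeq start site on GRCm38.p6, the assembly also known as mm10. Windows were used for 6 of the 10 factors, and that of Emx2 is not printed. The source held none for Sox9, Wt1 and Gata4. Gata6 was left out of this part, and its promoter was not searched for motifs. Of the factors with a Sertoli call, only Sox8 and Gata1 are therefore represented. Capitals mark matches, on either strand, to short motifs named for the factors that bind them. The GATA motif was AGATAA or else AGATAG, or in another form TGATAA or else TGATAG. The SOX motif was AACAAT or, as a longer form, AACAAAG. The E-box read by TCF21 and its partners was CAGCTG, the nuclear receptor half-site was AGGTCA, the homeodomain motif was TAATTA or else TAATTG, and the WT1 motif was GCGTGGG.
Tcf21, chr10:22820094-22820393, minus strand: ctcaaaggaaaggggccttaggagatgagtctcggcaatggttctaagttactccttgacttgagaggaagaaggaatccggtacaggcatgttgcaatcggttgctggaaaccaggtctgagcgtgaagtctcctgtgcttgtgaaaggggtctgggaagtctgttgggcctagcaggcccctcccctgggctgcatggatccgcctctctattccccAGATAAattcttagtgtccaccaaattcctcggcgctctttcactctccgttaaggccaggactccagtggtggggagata
Nr2f2, chr7:70366697-70366996, minus strand: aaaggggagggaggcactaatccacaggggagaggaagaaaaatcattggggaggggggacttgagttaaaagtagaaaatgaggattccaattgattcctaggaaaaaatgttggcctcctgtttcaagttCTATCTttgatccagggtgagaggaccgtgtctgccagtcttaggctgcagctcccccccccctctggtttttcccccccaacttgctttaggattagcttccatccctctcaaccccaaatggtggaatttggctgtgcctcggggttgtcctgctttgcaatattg
Lhx9, chr1:138842395-138842694, minus strand: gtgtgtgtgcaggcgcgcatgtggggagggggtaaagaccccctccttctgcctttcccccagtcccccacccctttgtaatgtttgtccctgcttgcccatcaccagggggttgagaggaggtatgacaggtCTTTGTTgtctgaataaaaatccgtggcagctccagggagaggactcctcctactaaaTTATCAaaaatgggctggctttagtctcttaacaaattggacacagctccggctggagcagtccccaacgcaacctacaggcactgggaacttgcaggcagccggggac
Sox8, chr17:25570637-25570936, minus strand: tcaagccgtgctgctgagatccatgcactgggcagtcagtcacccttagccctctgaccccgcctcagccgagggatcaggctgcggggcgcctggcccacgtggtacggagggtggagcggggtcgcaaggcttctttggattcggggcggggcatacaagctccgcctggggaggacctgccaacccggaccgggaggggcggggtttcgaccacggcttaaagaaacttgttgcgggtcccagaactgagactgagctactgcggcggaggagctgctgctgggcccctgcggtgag
Gata1, chrX:7967861-7968160, minus strand: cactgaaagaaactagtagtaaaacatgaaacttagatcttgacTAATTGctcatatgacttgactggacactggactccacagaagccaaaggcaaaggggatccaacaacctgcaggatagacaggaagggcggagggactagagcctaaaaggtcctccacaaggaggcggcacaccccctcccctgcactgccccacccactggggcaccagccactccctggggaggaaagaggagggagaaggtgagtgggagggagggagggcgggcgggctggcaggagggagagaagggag

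All 3 windows of the factors shared by stromal-like and peritubular myoid-like cells held 1 match to the GATA letters, which 29.8% of 32851 windows hold. The Tcf21 match, AGATAA, began 31 bases before the start, that of Lhx9, TGATAA on the opposite strand, 59 bases before it, and that of Nr2f2, AGATAG on the opposite strand, 118 bases before it. Lhx9 also held AACAAAG on the opposite strand, 117 bases before the start, and the SOX letters occur in 15.7% of windows. The Sox8 window held no match to any of the motifs, and that of Gata1 held only TAATTG, which together with TAATTA is found in 12.4% of windows. CAGCTG (16.3% of windows), AGGTCA (16.3%) and GCGTGGG (5.04%) were in none of the 5 windows. The letters describe the sequence and not binding. In the GENCODE annotation Gata1 reaches from base 7959260 to base 7978071 of the X chromosome on the minus strand, so that its outermost start lies upstream of the window shown. The same holds for Lhx9 (chromosome 1, 138825186 to 138848577, minus strand). The start of Tcf21 in that annotation, base 22820174 of chromosome 10, is the first base of its AGATAA match. By that start the match lies within the transcript and not before it. Which start was used in these cells was not measured, since the counts are per gene. Sox8, Tcf21 and Nr2f2 each overlap an annotated gene on the opposite strand that the count table does not list.

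Sox9 encodes the HMG-box factor that directs supporting cells to the Sertoli fate. Its gene lies on chromosome 11 (112782224 to 112787760, plus strand). In Sertoli-like cells 1047 Sox9 UMIs gave 456 CPM (429 to 485), and 235 of 255 cells, 92.2% (88.1 to 95.1), held at least 1. Stromal-like cells had 15.8 CPM (10.3 to 23.2) and peritubular myoid-like cells 13.5 CPM (6.48 to 24.8). The Sertoli-like level was 28.8 times the stromal-like level (19.5 to 44.3) and 33.8 times the peritubular myoid-like level (18.3 to 70.6). Germ cells, which should lack Sox9, had 5.40 CPM, and the level in stromal-like cells was 2.93 times theirs (1.67 to 5.13). Germ cells were also deeper, with a median of 18216.5 UMIs against 8370.5 in stromal-like cells. The part of depth and free RNA in this ratio was not tested. With a mitochondrial limit of 5%, which left 65 stromal-like cells in the class, their Sox9 level was 1.70 CPM.

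Sox8, the close relative of Sox9 that acts with it in keeping tubules intact, lies on chromosome 17 (25565892 to 25570686, minus strand). It was counted 184 times in Sertoli-like cells, 80.2 CPM (69.0 to 92.6), in 117 of 255 cells. Stromal-like cells held 1 UMI, 0.609 CPM, peritubular myoid-like cells 4 UMIs, 5.40 CPM (1.47 to 13.8), and germ cells 2.52 CPM. The Sertoli-like level was thus 14.8 times that of peritubular myoid-like cells (5.70 to 55.0) and 31.8 times that of germ cells (18.5 to 59.3). Within Sertoli-like cells Sox9 was found in similar shares of cells with and without Sox8, with intervals that overlap. After each cell was thinned to 5000 UMIs, 84.6% (74.7 to 91.8) of 78 cells with Sox8 held Sox9, and 85.4% (78.8 to 90.5) of the cells without it did.

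Wt1, the zinc finger factor of the Wilms tumour gene, is needed both for the gonadal ridge and, later, for Sertoli cells to keep their polarity. The gene is on chromosome 2 (105126529 to 105173616, plus strand). Sertoli-like cells had 788 UMIs, 343 CPM (320 to 368), in 87.5% of cells (82.7 to 91.3). The levels elsewhere were 7.31 CPM in stromal-like cells, 2.70 CPM in peritubular myoid-like cells and 3.78 CPM in germ cells. The ratio of Sertoli-like to stromal-like cells was 47.0 (26.7 to 91.3). The stromal-like to germ cell ratio was 1.93 (0.867 to 4.11), with an interval that included 1 and overlapped that of Sox9.

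Gata1, Gata6 and Gata4 were all highest in Sertoli-like cells but differed in their levels elsewhere. Gata1, best known as the erythroid GATA factor and also made by Sertoli cells, was detected in Sertoli-like cells with 99 UMIs, 43.1 CPM (35.0 to 52.5), in 72 of 255 cells. Stromal-like and peritubular myoid-like cells held 0 Gata1 UMIs, which allows up to 1.83 and 4.05 CPM at 3 counts. Against 3 counts the Sertoli-like level was 23.6 times the first and 10.6 times the second. The intervals of these ratios began at 7.84 and 3.54. Gata6, a paralog of Gata4, had 274 UMIs in Sertoli-like cells, 119 CPM (106 to 134), 7 UMIs in stromal-like cells, 4.26 CPM (1.71 to 8.79), and 0 in peritubular myoid-like cells. Its Sertoli-like level was 28.0 times the stromal-like one (13.4 to 70.3). It was 29.5 times that of peritubular myoid-like cells set to 3 counts, with an interval that began at 9.97. A gene on the opposite strand at the Gata6 locus, 1010001N08Rik, was counted 15 times in Sertoli-like cells and 0 times in the other somatic classes, and the sources used here do not say whether the counting used strand.

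Gata4 acts from the gonadal ridge onward and is known from Sertoli, Leydig and other interstitial cells. It was the 1 factor with at least 25 UMIs in each of the 3 somatic classes. Its gene lies on chromosome 14 (63198922 to 63271692, minus strand). Sertoli-like cells had 334 UMIs, 145 CPM (130 to 162), stromal-like cells 63 UMIs, 38.4 CPM (29.5 to 49.1), and peritubular myoid-like cells 25 UMIs, 33.8 CPM (21.8 to 49.8). Germ cells had 1.98 CPM, so both interstitial classes stood far above germ cells, by 19.4 times (10.1 to 40.8) and 17.1 times (8.09 to 38.4). The Sertoli-like level was 3.79 times the stromal-like level (2.89 to 5.05) and 4.31 times the peritubular myoid-like level (2.87 to 6.76), on either side of the 4-fold limit. With the 5% mitochondrial limit or a fold of at least 2, Gata4 was called specific to Sertoli-like cells. With cells thinned to 5000 UMIs, Gata4 was found in 51.5% of Sertoli-like cells (44.9 to 58.0), 17.4% of stromal-like cells (12.1 to 24.0), 18 of 90 peritubular myoid-like cells (12.3 to 29.8%) and 1.08% of germ cells.

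The balance of Gata6 against Gata4 differed between classes. Sertoli-like cells had 0.820 Gata6 UMIs per Gata4 UMI and stromal-like cells 0.111, an odds ratio of 7.37 (3.30 to 19.4), a quantity in which gene length cancels. In peritubular myoid-like cells 25 Gata4 UMIs were seen beside 0 of Gata6. Among the other GATA genes of a list of related factors, Gata2 had 7 UMIs in peritubular myoid-like cells and 0 in the other somatic classes, Gata3 had 1 UMI in Sertoli-like cells, and Gata5 had none in any of the 3 classes.

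**Figure D2:**
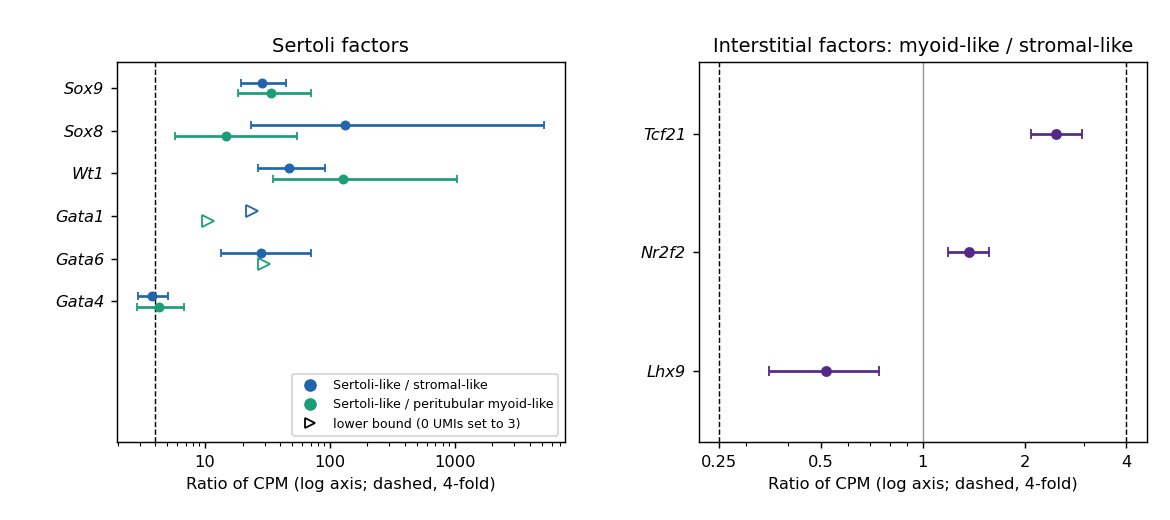
Left, ratios of CPM (log axis) of Sertoli-like over stromal-like and over peritubular myoid-like cells for the 6 factors highest in Sertoli-like cells, with exact 95% intervals; open triangles are lower bounds where 1 class had 0 UMIs. Right, ratios of peritubular myoid-like over stromal-like cells for Tcf21, Nr2f2 and Lhx9. Gata4 straddles the dashed 4-fold line at 3.79 and 4.31, while Tcf21 (2.48), Nr2f2 (1.37) and Lhx9 (0.516) lie on different sides of 1 and inside the 4-fold limits.

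The UMIs of the Sertoli group outside Sertoli-like cells were set against those of the 8 Sertoli markers, taken as a guide to free RNA. Depth differed between classes, and free RNA itself was not measured. In stromal-like cells these markers stood at a median of 1.36% of their Sertoli-like CPM, from 0 for Fshr to 4.89% for Inha, and in germ cells at a median of 1.05%, with a highest value of 1.33% for Cst9. Of the factors, Sox9 stood in stromal-like cells at 3.47%, Gata6 at 3.57%, Wt1 at 2.13% and Sox8 at 0.760% of the Sertoli-like level. The value of Inha rests in part on 1 cell, which held 43 of its 108 UMIs in the class. The next marker, Aard, stood at 3.45%, and Sox9 (26 UMIs) and Gata6 (7 UMIs) could not be told from it. Every other marker stood at 1.41%, the value of Dhh, or lower. The ratios of Sox9 and Gata6 to the Sertoli-like level were 0.0347 (0.0226 to 0.0512) and 0.0357 (0.0142 to 0.0746). Both intervals lay above the value of Dhh, that of Gata6 only just. The value of Dhh itself rests on 5 UMIs in stromal-like cells, and its counting error is not part of this comparison. The source of these UMIs was not tested. Gata4 was above every marker, with 26.4% in stromal-like cells and 23.2% in peritubular myoid-like cells, where the markers reached 2.36% at most. In peritubular myoid-like cells Sox9 stood at 2.96% from 10 UMIs and Sox8 at 6.74% from 4 UMIs. As ratios, their intervals of 0.0142 to 0.0547 and 0.0182 to 0.176 both held the highest marker value there. In germ cells Sox8 stood at 3.14% from 14 UMIs and Gata1 at 1.67% from 4 UMIs. Gata4 stood there at 1.36%, Sox9 at 1.18%, Wt1 at 1.10% and Gata6 at 0.452%. The Sox8 ratio in germ cells, 0.0314 (0.0169 to 0.0541), had an interval above the value of Cst9, and its source was not tested.

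**Figure D3:**
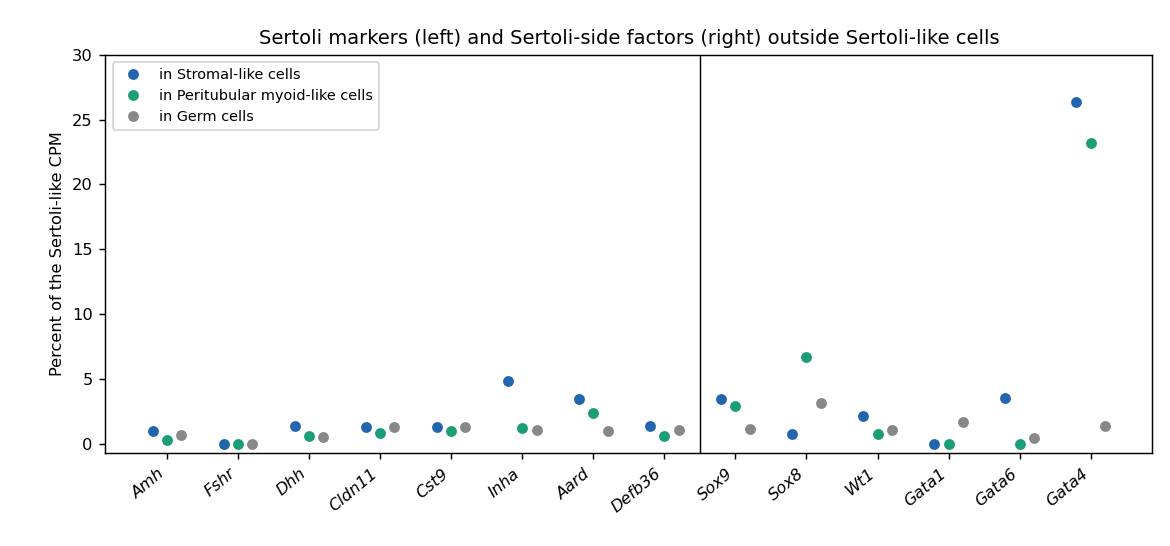
Points give the level in stromal-like, peritubular myoid-like and germ cells as a percent of the CPM in Sertoli-like cells, for 8 Sertoli markers on the left and 6 factors on the right. The highest marker value is 4.89% for Inha, of which 1 cell held 43 of 108 UMIs, followed by 3.45% for Aard. Sox9 and Gata6 reach 3.47% and 3.57% in stromal-like cells, while Gata4 reaches 26.4% and 23.2% in the 2 interstitial classes and Sox8 6.74% in peritubular myoid-like cells.

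The interstitial group was as sharply absent from Sertoli-like cells. Tcf21, at chromosome 10 (22817281 to 22820174, minus strand), had 258 UMIs in stromal-like cells, 157 CPM (139 to 178), and 289 UMIs in peritubular myoid-like cells, 390 CPM (347 to 438). Sertoli-like cells held 2 UMIs, 0.871 CPM, and germ cells 1 UMI. The level in peritubular myoid-like cells was 2.48 times that in stromal-like cells (2.09 to 2.95). After thinning to 5000 UMIs, 83.3% (74.0 to 90.4) of peritubular myoid-like cells and 86 of 172 stromal-like cells (42.3 to 57.7%) held Tcf21.

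Nr2f2, at chromosome 7 (70351944 to 70366735, minus strand), was detected in both classes at closer levels. Stromal-like cells had 527 UMIs, 321 CPM (294 to 350), and peritubular myoid-like cells 325 UMIs, 439 CPM (392 to 489), a ratio of 1.37 (1.19 to 1.57). A UMI was found in 158 of 186 stromal-like cells and 90 of 94 peritubular myoid-like cells, against 4 of 255 Sertoli-like cells and 15 of 324 germ cells. The stromal-like level was 184 times that of Sertoli-like cells (71.5 to 679).

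Lhx9 had the opposite tilt. It was higher in stromal-like cells, with 159 UMIs and 96.9 CPM (82.4 to 113), than in peritubular myoid-like cells, with 37 UMIs and 49.97 CPM (35.2 to 68.9), by 1.94 times (1.35 to 2.85). Sertoli-like cells held 0 Lhx9 UMIs, which allows up to 1.31 CPM at 3 counts. Against that level the stromal-like level was 74.1 times as high and the peritubular myoid-like level 38.2 times. The intervals of these ratios began at 24.9 and 12.1. Set against each other within a class, Tcf21 and Lhx9 shifted most: peritubular myoid-like cells had 7.81 Tcf21 UMIs per Lhx9 UMI and stromal-like cells 1.62, an odds ratio of 4.80 (3.20 to 7.35). The odds ratio was 1.82 (1.45 to 2.27) for Tcf21 against Nr2f2 in the same classes, and 2.65 (1.79 to 4.002) for Lhx9 against Nr2f2 in stromal-like over peritubular myoid-like cells.

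Emx2 was at the detection limit. Only 2 UMIs were seen in 970 barcodes, 1 in a kept germ cell and 1 in a barcode called a doublet. Its count of 0 in each somatic class, set to 3 counts, allows up to 1.31 CPM in Sertoli-like cells. For the stromal-like class it allows up to 1.83 CPM and for the peritubular myoid-like class up to 4.05 CPM. Lower levels could not be told from 0 at this depth. Emx1, its paralog, had 1 UMI, also in a germ cell.

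In single cells the groups seldom met in the Sertoli-like class and met more often, at low Sertoli-factor counts, in the other somatic classes. At least 1 UMI of Sox9, Sox8, Wt1, Gata1 or Gata6 was found in 253 of 255 Sertoli-like cells, while 6 held a UMI of Tcf21, Nr2f2 or Lhx9 and none held more than 1. Of 186 stromal-like cells 178 held an interstitial factor, 39 held a Sertoli factor, with at most 2 UMIs, and 38 held both. All 94 peritubular myoid-like cells held an interstitial factor, and 14 held a Sertoli factor, again with at most 2 UMIs. A Sertoli factor was also found in 64 of 324 germ cells, 19.8%, at their greater depth, against 21.0% of stromal-like cells. No Sertoli-like cell, 6 stromal-like cells and 2 peritubular myoid-like cells had 2 or more UMIs of each group.

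**Figure D4:**
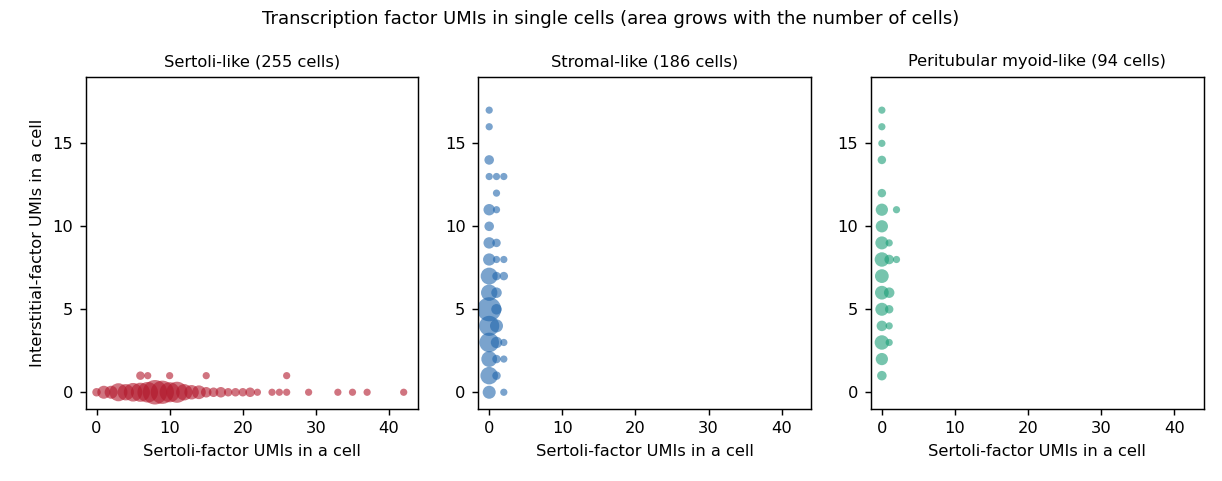
Each panel plots, for 1 somatic class, the UMIs of Sox9, Sox8, Wt1, Gata1 and Gata6 in a cell (horizontal) against those of Tcf21, Nr2f2 and Lhx9 (vertical), with a point area that grows with the number of cells. Sertoli-like cells lie along the horizontal axis, up to 42 UMIs, and stromal-like and peritubular myoid-like cells along the vertical axis, both up to 17 UMIs.

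Within the Sertoli-like class Gata1 and Sox9 varied between clusters while for the others no difference between clusters exceeded counting error. The class held a cluster of 133 cells, a cluster of 77 cells with high Uchl1 (206 CPM against 28.0 CPM in the largest) and a cluster of 45 cells with high mitotic genes (Top2a at 503 CPM). Gata1 was at 71.6 CPM (53.0 to 94.7) in the Uchl1-high cluster, 32.4 CPM (22.8 to 44.6) in the largest and 27.7 CPM (14.8 to 47.4) in the mitotic one, and the first was 2.21 times the second (1.41 to 3.49). Sox9 followed the same order, at 591, 418 and 352 CPM, with the Uchl1-high cluster at 1.41 times the largest (1.23 to 1.61). Between the largest and the mitotic cluster the intervals of both ratios included 1, at 1.17 (0.607 to 2.40) for Gata1 and 1.19 (0.994 to 1.43) for Sox9. Wt1 was at 346 CPM in the Uchl1-high cluster and 353 CPM in the largest, a ratio of 0.982 (0.833 to 1.16). For Sox8, Gata4 and Gata6 the same ratio was 1.23 (0.873 to 1.73), 1.10 (0.851 to 1.41) and 1.06 (0.806 to 1.40). Against all other kept cells, of every class, Gata1 was among the 10 genes with the largest fold in the Uchl1-high cluster. Nr0b1, which encodes the nuclear receptor DAX1, was another of the 10. Clusters were built from these cells, so the differences between them are a description.

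The stromal-like class split at a finer clustering into 123 cells led by Kcnk3 and Vcam1 and 63 cells led by Clec3b and Pi16. Sox9 was at 22.2 CPM (14.1 to 33.3) in the former and 4.96 CPM (1.02 to 14.5) in the latter, a ratio of 4.47 (1.35 to 23.3) that rests on 23 and 3 UMIs. The ratios of Gata4 (1.25, 0.722 to 2.25), Tcf21 (1.30, 0.991 to 1.71), Nr2f2 (0.916, 0.767 to 1.10) and Lhx9 (0.742, 0.536 to 1.03) all had intervals that include 1.

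**Figure D5:**
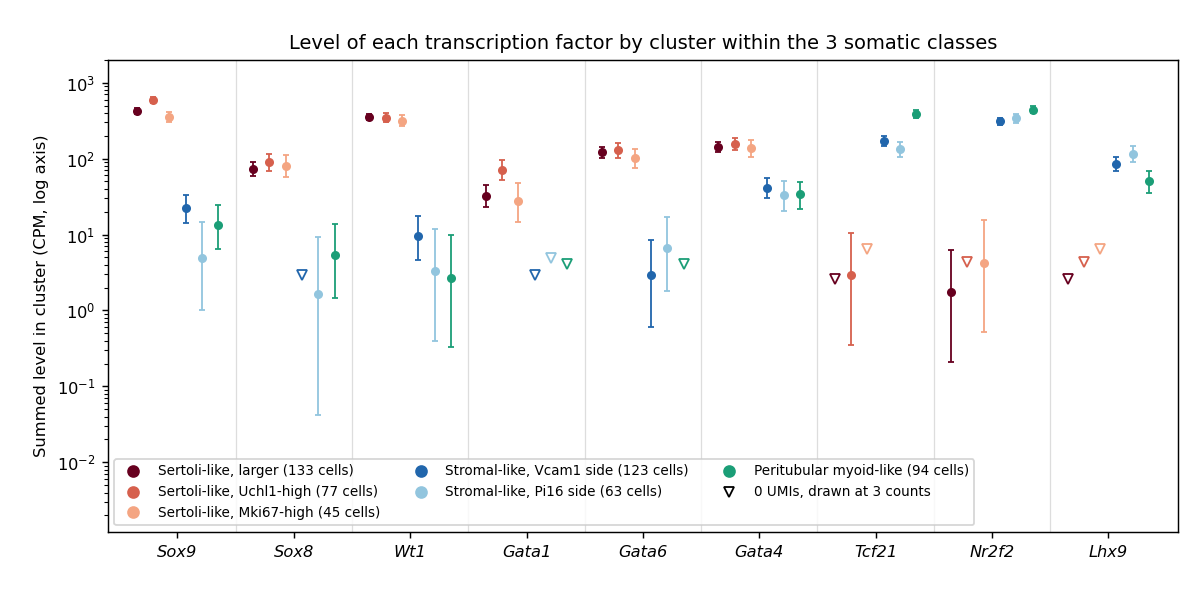
Points give the summed level of 9 factors (CPM, log axis) with exact Poisson 95% intervals in 3 Sertoli-like clusters, 2 subclusters of the stromal-like class and peritubular myoid-like cells; open triangles mark 0 UMIs at the level of 3 counts. Gata1 and Sox9 are highest in the Uchl1-high Sertoli-like cluster (71.6 and 591 CPM), while Wt1 is at 346 and 353 CPM in the 2 larger Sertoli-like clusters.

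Other regulators of the same lineages, from a list of 40, were called by the same rule. Of the 40, 23 had enough UMIs. Over all 10575 genes tested, 6.56% were specific to Sertoli-like cells, 1.32% to stromal-like cells and 1.38% to peritubular myoid-like cells. A further 5.82% were shared by the stromal-like and peritubular myoid-like classes, 1.06% by Sertoli-like cells and another class, and 83.9% were not called. Whether the list differs from these shares was not tested. Dmrt1, Zfpm1 and Sox6, 3 of 23, were specific to Sertoli-like cells, although Dmrt1, a factor of Sertoli and germ cells, was higher still in germ cells (302 CPM against 137 CPM). Zfpm1 encodes FOG1, a cofactor of GATA proteins, and was at 38.8 CPM in Sertoli-like cells, 4.26 CPM in stromal-like cells and 0 UMIs in peritubular myoid-like cells. Maf and Osr1, 2 of 23, were specific to stromal-like cells, the latter with 228 CPM there and 29.7 CPM in peritubular myoid-like cells. Heyl, a Notch target, was specific to peritubular myoid-like cells (161 CPM against 18.3 CPM in stromal-like cells). Sox11 and Meis2 were among the genes shared by these classes, Meis2 with 16.4 CPM in stromal-like cells, 16.2 CPM in the myoid-like class and 2.61 CPM in Sertoli-like cells. Sox11 was at 15.8 CPM in stromal-like cells, 17.6 CPM in the myoid-like class and 0 UMIs in Sertoli-like cells. In germ cells it was at 24.3 CPM (20.4 to 28.8), so it was not confined to the interstitial classes. Nr0b1 was the 1 gene shared by Sertoli-like cells (57.9 CPM) and stromal-like cells (17.7 CPM), the latter from 29 UMIs in 9 of 186 cells with 9 UMIs in 1 of them. The other 13 were not called, among them Nr5a1, which encodes steroidogenic factor 1, which had 93.7 CPM in Sertoli-like cells, 51.2 CPM in the stromal-like and 23.0 CPM in the peritubular myoid-like class. Foxl2, the ovarian counterpart of Sox9, had 0 UMIs in all 4 classes measured.

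The genes whose levels across the 10 clusters were most like those of each factor were named by Pearson's r of log2(CPM + 10) over 9072 genes with at least 100 UMIs. Aard, which is also a Sertoli marker used for naming, came first for Sox9 (r = 0.995), Gas7 for Wt1 (0.995), Slc26a7 for Sox8 (0.992), Dmrta1 for Gata1 (0.992), Sobp for Gata4 (0.991) and Defb36, another naming marker, for Gata6 (0.995). In the interstitial group the HOX genes Hoxc6 (0.996) and Hoxd10 (0.995) ranked first and behind Tmem45a (0.995) for Tcf21, Hoxd9 (0.994) was first for Nr2f2, and Adamts5 (0.996), which encodes a matrix protease, was first for Lhx9. The 10 clusters come from 1 library and share its free RNA, so these values describe likeness and nothing more.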

How the data were processed

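RNA was measured in 1 library of single testis cells from Wild-type mice at postnatal day 8, pooled from 3 mice. The authors made UMI counts per gene and cell barcode with Cell Ranger 2.1.0 against mm10, per the labels, and deposited them without normalization (11358045 UMIs in 970 barcodes, 2655 to 44915 per barcode). The gene annotation release is not given in the sources used here. The Zscan2-/- library was not analysed here.

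A barcode was kept when it had 500 genes or more, a mitochondrial share below 10% and no call by scrublet (scanpy 1.11.5, expected rate 1%, 4 called as doublets), which left 920. Cells were clustered with Seurat 5.3.0 (genes in at least 3 cells, log-normalization to 10000 UMIs, mean.var.plot variable genes without the 10 factors, 14 principal components, resolution 0.5). A cluster took the class whose markers had the largest mean difference in log-normalized expression from the other cells. It stayed unnamed with fewer than 3 markers found in 10% of its cells, when shallow with no marker of its class in its 10 leading genes, or when another class had more markers or any marker there. This scoring was chosen after the marker lists were fixed.

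UMIs of a gene were summed over a class and divided by all its UMIs, times 1000000 (CPM). Intervals at the 95% level were exact: Poisson for CPM, conditional binomial for ratios, Clopper-Pearson for shares and conditional for odds ratios. A class with 0 UMIs was set to 3 counts for bounds, so a ratio given as a bound is the ratio to 3 counts. It is not the lower end of an interval. With 1 library no p-value was given, since cells do not replicate a condition. The rule for calls was tried on simulated counts with known folds. Named were the 10 factors, a list of 40 related regulators (the result of 1 is not reported here), the class markers, and for each factor with at least 50 UMIs the 3 most similar genes, of which some are given. The factors, lists and rules were chosen with earlier results of these data known. Positions are from GENCODE vM21 (GRCm38) and promoter windows from RefSeq. Alternatives covered the variable genes, resolution, filters on cells, doublets, germ cell transcripts, mitochondrial and ribosomal protein genes, the deepest cells, the mean over cells in place of the sum, a split of the counts between clustering and measuring, the thinning depth, the fold and the UMI minimum.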

Additional observations from a re-analysis of the deposited data

Results flagged for a closer look

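UMIs of 8 of the factors were found in the 50 barcodes left out of all comparisons (10 with too few genes, 36 with a high mitochondrial share and 4 called doublets), above the 3 counts that a count of 0 allows. Wt1 had 37 UMIs there, Sox9 26, Nr2f2 19, Gata6 14, Sox8 5, Gata4 5, Tcf21 5 and Gata1 4. Wt1 UMIs were in 12 of these barcodes and Sox9 UMIs in 15. Of the Tcf21 UMIs all 5 lay in barcodes called doublets, as did 7 of the 19 Nr2f2 UMIs and 9 of the 37 Wt1 UMIs.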

How the results depend on the processing

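No paired analysis was possible because there is 1 library. No log2 ratio with an interval excluding 0 changed sign under an alternative. Of the ratios of stromal-like over peritubular myoid-like cells whose interval included 0, that of Sox9 went from 0.23 to -3.00 with a mitochondrial limit of 5% and -0.03 with the doublets kept, and that of Wt1 from 1.44 to -0.56 with the doublets kept. That of Gata4 went from 0.18 to -0.45 with the limit of 5% and -0.01 with variable genes chosen by vst. For Gata6, with 0 UMIs in peritubular myoid-like cells, the lower bound of that ratio went from 0.07 to between -1.16 and -0.01 under 4 alternatives. The number of factors not called was 0 with a mitochondrial limit of 5% or a fold of at least 2, as Gata4 was then specific to Sertoli-like cells, and 2 with no minimum of UMIs, as Emx2 was then tested. A fold of at least 2 also made 1 factor, Tcf21, specific to peritubular myoid-like cells. The other 92 counts of calls over all alternatives were within 1.5 times those reported. Of 520 levels 44 moved by more than their interval, as did 10 ratios, while 328 did not, and 14 of 40 shares with cells thinned to 3000 UMIs. With a mitochondrial limit of 5%, 54 cells were Sertoli-like, 65 were stromal-like and a cluster of 117 cells was unnamed. The log2 ratio of Gata4 in Sertoli-like over stromal-like cells was then 2.59 instead of 1.92, and Sox9 in stromal-like cells was at 1.70 CPM instead of 15.8 CPM. With the doublets kept, the log2 ratio of Wt1 in Sertoli-like over peritubular myoid-like cells was 5.01 instead of 6.99. The finer stromal-like clusters and the division of the unnamed cluster by marker UMIs were chosen after seeing the data. A single library of pooled mice leaves the variation between animals unmeasured. A count of 0 in a class was set to 3 counts for bounds, and lower levels could not be told from 0.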

Other observations

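The unnamed cluster of 26 cells was led by genes of pericytes and of T and natural killer cells, and its cells could be told apart by marker UMIs. Of its 22 Nr2f2 UMIs 21 were in the 10 cells with pericyte markers alone, as were all 4 Tcf21 UMIs and both Lhx9 UMIs, while 12 cells with T cell markers alone held 1 Sox9 UMI and no other factor. Its 5 Wt1 UMIs lay in 3 of the 4 cells with neither set of markers. These 3 cells, singled out after their values were seen, each held at least 4 of 5 endothelial markers, with 18 Cdh5, 15 Kdr, 4 Tek, 35 Egfl7 and 4 Pecam1 UMIs between them and 0 of the Sertoli marker Amh. In the remaining 23 cells of the cluster there were 0 Wt1 UMIs, 1 of Cdh5 and 0 of Kdr. Of the other kept cells, 3 stromal-like cells and 1 germ cell held at least 3 of the 5 endothelial markers.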
